A study of Mus musculus with 24 samples.

Results

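The 10 genes described here were grouped as injury-induced growth effector genes: Sprr1a, Gap43, Ecel1, Tmprss5, Gpr151, Cckbr, Sez6l, Flrt3, Cd44 and Igfn1. They were picked from earlier results on this table because they stood far above their starting level after a nerve lesion or after plating, and they are 10 of the 20782 genes in it. Levels after lesion and in culture therefore chose the genes and are given as a description, without a test. The difference between the 2 embryonic ages played no part in the choice and was tested.

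Lumbar dorsal root ganglia hold the cell bodies of sensory neurons, which send one branch to the periphery and one to the spinal cord. When the peripheral branch is cut, the cell body switches on a programme of regeneration-associated genes, and dissociating and plating adult ganglia cuts the axons too. Transcription factors such as Atf3 and Jun come first in that programme, and growth cone proteins, surface receptors and proteases are among the effectors downstream of them. Some effectors are also used when axons first grow in the embryo, and others are not.

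RNA of mouse ganglia was sequenced in 24 libraries, 3 for each of 8 groups. Lumbar ganglia of embryos represent the ages E12.5 and E17.5. Adult animals had either a peripheral lesion, called conditioned in the series' design, or sham surgery before their L4 and L5 ganglia were used. Adult lumbar ganglia without surgery named in the labels were dissociated, plated at low density on laminin and collected 6, 12, 24 and 36 h later. The labels state neither strain, sex, adult age, the nerve cut nor the time from surgery to collection. They do not say either whether the libraries of a group came from separate animals, so p-values measure only the spread between these libraries, which may be technical. All libraries carry the label DRG neuron and a protocol that names cell sorting, while the protocol does not say whether the embryonic and operated ganglia were sorted.

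Depth ran from 3103838 to 25732182 reads per library. All 8 general neuron markers were detected in every group, with a summed level of 20861 to 34303 at E12.5, 56405 to 63430 at E17.5, 129428 to 136333 after sham surgery, 130788 to 147536 after lesion, 71744 to 74153 at 6 h and 44157 to 53463 at 36 h. Markers of myelinating Schwann cells were detected as well, with a summed level of 65554 to 83009 after sham surgery and 16664 to 20277 at 36 h. In such bulk samples fewer cells of a type and less RNA per cell cannot be told apart, and the part of cell mixture in the results below was not tested. Cultures differ from operated ganglia in dissociation, plating, the ganglia taken and the range of library numbers in the titles. These cannot be told apart. All levels below are normalized read counts, as the authors scaled them, and group values are mean ± SD of 3 libraries.

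After lesion, 9 of the 10 genes stood above sham in every library, and Tmprss5 overlapped. Among all 14556 genes with a measurable level 26.3% did so, but the lesion contrast had chosen the members. The lesion mean was 1.22 to 40.8 times the sham mean over the 10 genes, and the median log2 difference was 3.76, against -0.01 over all genes. At 6 h in culture only Gpr151, Flrt3 and Cd44 were above sham in every library (30.2% of all genes), while Sprr1a, Gap43, Cckbr, Igfn1 and Tmprss5 were below it in every library (34.9% of all genes). By 36 h, 9 genes were above sham in every library (36.9% of all genes) and Gap43 was below it (37.4% of all genes). The lesion and culture differences share the same sham libraries, so they are set side by side and not related to each other.

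**Figure D1:**
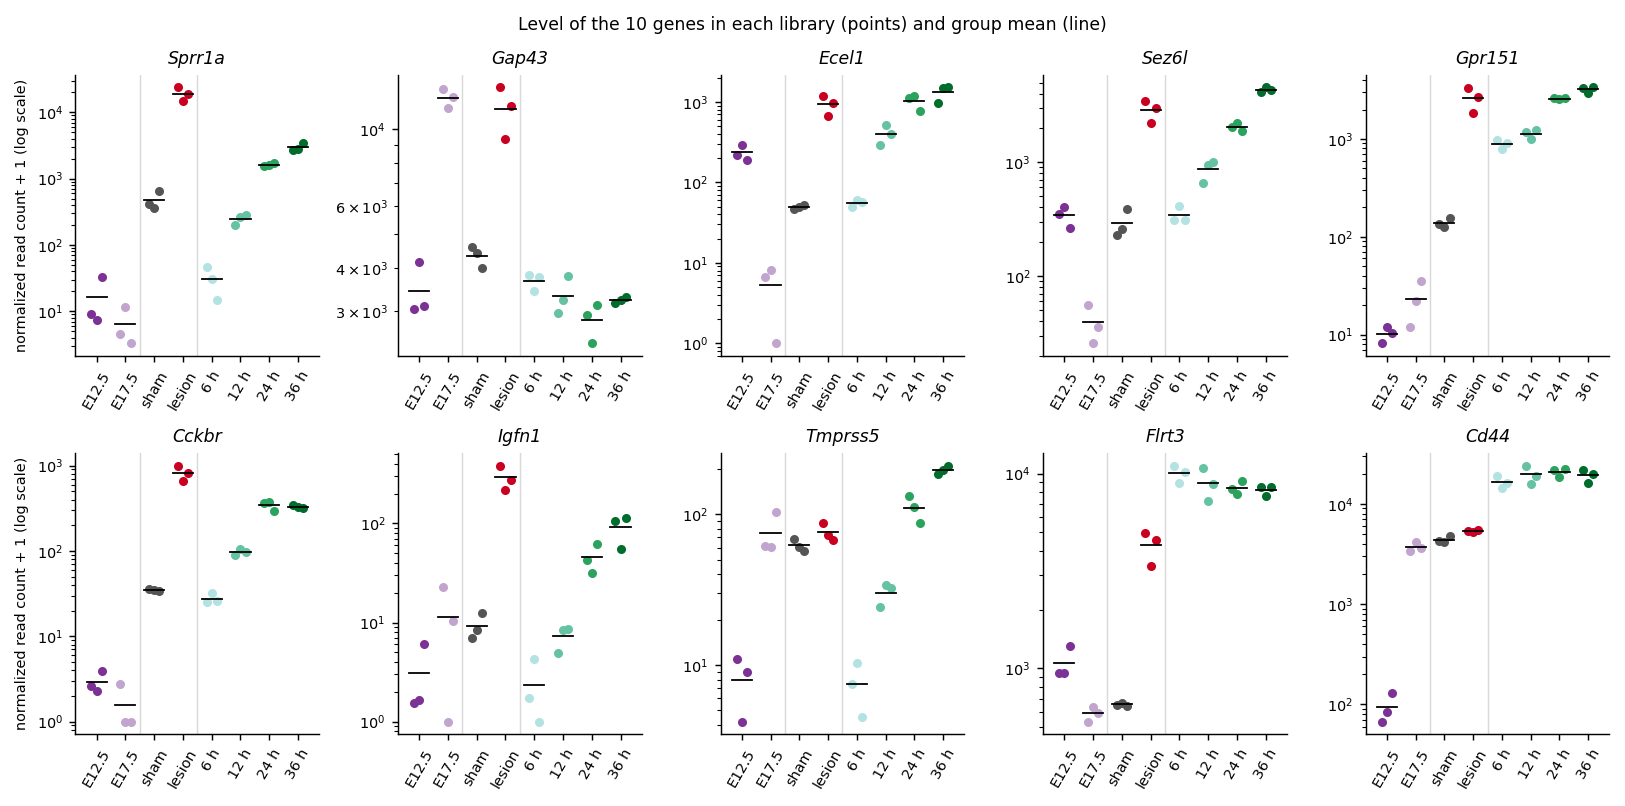
Normalized read count + 1 (log scale) of each gene in the 24 libraries, by group, with points for libraries and a line for the mean of 3. Sprr1a, Cckbr and Igfn1 are highest after lesion, Gap43 is highest after lesion and at E17.5, and Flrt3 and Cd44 are highest in culture from 6 h on.

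**Figure D2:**
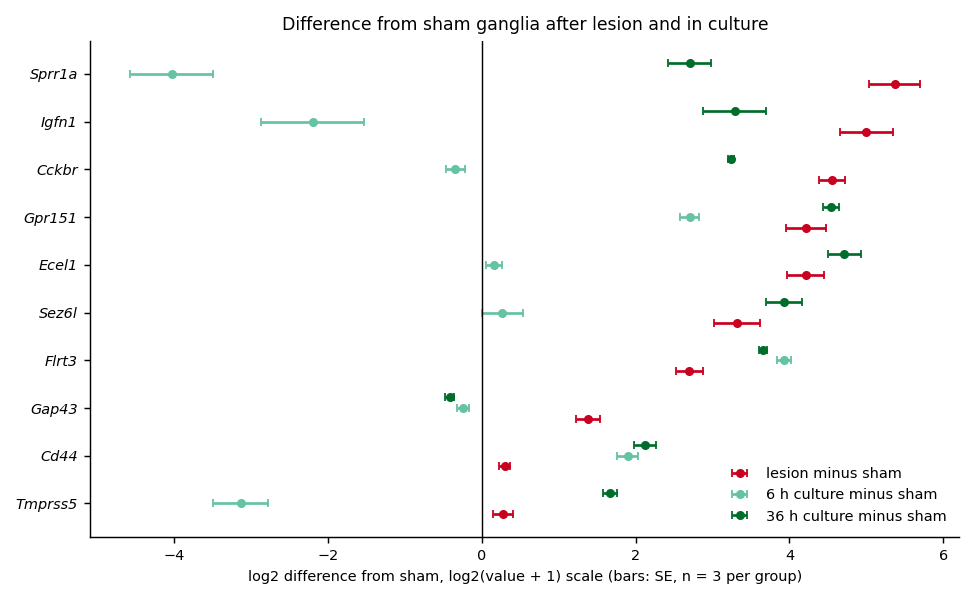
Log2 difference from sham of the lesion, 6 h and 36 h groups for each gene, on the log2(value + 1) scale, with SE bars (n = 3 per group). At 6 h Sprr1a, Igfn1 and Tmprss5 lie far left of 0, whereas Gpr151, Flrt3 and Cd44 already lie far right of it.

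Sprr1a encodes a small proline-rich protein known from the cornified envelope of squamous epithelium, which injured sensory neurons also make and which promotes axon outgrowth. It stood at 409, 355 and 643 in the sham libraries and at 23731, 14642 and 19037 in the lesion libraries. The lesion mean was 40.8 times the sham mean, a log2 difference of 5.37 ± 0.33 (SE), which ranked 1 of 14556 genes. At 6 h in culture it was far below sham, at 45.7, 29.7 and 14.1, which is 6.36% of the sham mean and rests on 121 reads. It was then higher at each later time in every library, at 247 ± 43.8 at 12 h, 1611 ± 98.9 at 24 h and 2699, 2803.5 and 3433 at 36 h. This 36 h level was 99.8 times the 6 h level and ranked 1 of 15006 genes for the difference between these times, yet it was 15.6% of the lesion level. The summed level of 6 squamous epithelium markers was 25.8 to 45.3 after sham surgery, 35.1 to 43.9 after lesion, 35.7 to 151 at 6 h, 47.8 to 183 at 12 h and 18.6 to 35.6 at 36 h. Krt10 was the highest of them, at a mean of 22.4, 28.7, 57.2, 66.8 and 20.1 in the same groups. Dsg1a was at 4.93, 3.39, 15.7, 17.1 and 4.02, and Krt5 was below 1 in each. Sprr2a1, a cornified envelope relative of Sprr1a, was at 2.75 ± 2.42 after sham surgery and 41.3 ± 9.00 after lesion. The part of such cells in the Sprr1a values was not tested.

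The Sprr1a start region is shown because this gene had the largest difference in both settings. RefSeq's promoter table for GRCm38.p6 holds 8 of the 10 genes with 9 start sites (Gap43 and Gpr151 are not in it), and the 250 bases before each start were searched on both strands. The AP-1 motif TGANTCA, bound by Jun, Fos and Atf3 dimers, was found in 2 of the 9 windows and in 6.75% of all 32851 windows. The Sprr1a window holds 2 copies, as do 0.338% of all windows (2 or more), and 1 of the starts of Tmprss5 holds 1 copy. A cAMP response element (TGACGTCA, 1.55% of all windows), an amino acid response element (TGATGCAA, 0.791%) and a STAT motif (TTCNNNGAA, 7.02%) were found in 0 of the 9. Capitals mark the AP-1 motif in the Sprr1a sequence on the minus strand at chr3:92485896-92486131, bases -250 to -15 from the start site, and in 30 bases of Tmprss5 on the plus strand at chr9:49102730-49102759. A match is a run of letters and not a measured binding site.
Sprr1a: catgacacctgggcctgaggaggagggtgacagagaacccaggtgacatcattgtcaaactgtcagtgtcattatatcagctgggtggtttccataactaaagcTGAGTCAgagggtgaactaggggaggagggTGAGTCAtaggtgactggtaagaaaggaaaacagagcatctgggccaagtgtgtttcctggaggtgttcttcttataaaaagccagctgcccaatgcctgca
Tmprss5: ggctgggctgtTGAATCAatcctgacatga

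Gap43 encodes a membrane-bound phosphoprotein of the growth cone and is the classic marker of growing axons. Its pattern differed from that of the other members, since it was high after lesion and never in culture. Sham libraries held 4576, 4405 and 3989 and lesion libraries 13147, 9330.0 and 11649, a mean 2.63 times that of sham (log2 difference 1.38 ± 0.16, SE). In culture it stood at 3809, 3419 and 3769 at 6 h, 3327 ± 423 at 12 h, 2832 ± 363 at 24 h and 3175, 3239 and 3299 at 36 h. The 36 h level was 74.9% of sham and 28.5% of the lesion level. From 6 to 36 h the log2 difference was -0.18, and it was 0.01 when libraries were rescaled to equal totals, so its direction within the culture depends on the scaling. As the only member highest in an embryonic group, it reached 13021, 11449 and 12329 at E17.5, a range that overlaps the lesion libraries.

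Both membrane proteases among the members started from low adult levels but responded differently to the lesion. Ecel1, a neuronal metalloprotease known to be induced by nerve damage, stood at 45.3, 49.0 and 51.0 in sham libraries. After lesion it was at 1177, 675 and 964, a mean 19.4 times that of sham (log2 difference 4.21 ± 0.24, SE). It was still at the sham level at 6 h (47.9, 59.4 and 56.4), where the groups overlap. Cultures then reached 397 ± 111 at 12 h, 1016 ± 209 at 24 h and 968, 1475 and 1514 at 36 h. The 24 h, 36 h and lesion libraries overlap in their range, and the 36 h mean was 140.5% of the lesion mean.

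Tmprss5, a membrane-anchored serine protease also called spinesin, was the member with no clear lesion difference. Its sham values were 66.9, 59.9 and 56.2 and its lesion values 85.9, 71.8 and 65.9, which overlap (ratio 1.22, log2 difference 0.28 ± 0.13, SE). In culture it stood at 6.53, 9.34 and 3.53 at 6 h, 10.6% of the sham mean, on 27 reads in all. It was then at 29.1 ± 5.04 at 12 h, 109 ± 22.3 at 24 h and 183, 195 and 209 at 36 h. The 36 h libraries were above every other group, at 3.21 times sham and 2.63 times lesion. Its difference from 6 to 36 h (log2 4.80) ranked 5 of 15006 genes, part of which is the low start at 6 h. It was 3.66 with a pseudocount of 10 in place of 1. Summed myelinating Schwann markers stood at 65554 to 83009 after sham surgery, 19139.5 to 26511 at 6 h and 16664 to 20277 at 36 h. Satellite glia markers stood at 51864.5 to 61023.5, 24185 to 26401 and 29572 to 32087 in the same groups. The part of glial cells in the Tmprss5 values was not tested.

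The G protein-coupled receptors Gpr151 and Cckbr were both more than 19 times above sham after lesion, and they parted in culture. Gpr151, an orphan receptor of injured sensory neurons and of the habenula, stood at 133, 124 and 154 in sham libraries and at 3330, 1849 and 2696 in lesion libraries. The ratio of the means was 19.2 (log2 difference 4.22 ± 0.26, SE). It was already at 979, 796 and 917 at 6 h, 6.55 times sham, whereas Ecel1, Sez6l, Cckbr, Sprr1a, Igfn1 and Tmprss5 were at or below the sham level then. At 24 h it was at 2590 ± 48.8 and at 36 h at 3304, 2934 and 3370, ranges that overlap the lesion libraries.

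Cckbr, the B-type receptor of cholecystokinin and gastrin, was at 34.4, 33.6 and 33.3 in sham libraries, the narrowest spread among the members. Lesion libraries held 998, 665 and 808, a ratio of 24.4 (log2 difference 4.55 ± 0.17, SE). At 6 h it was at 24.0, 31.3 and 24.7, just below sham. The culture reached 96.9 ± 7.60 at 12 h and 342 ± 43.5 at 24 h and went no higher at 36 h (343, 326 and 314). Its level thus levelled off at 39.8% of the lesion level, with every 36 h library below every lesion library.

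Sez6l, a single-pass membrane protein of the Sez6 family, was still climbing at the last culture time. Its sham values were 226, 259 and 386 and its lesion values 3410, 2188 and 3004, a ratio of 9.87 (log2 difference 3.31 ± 0.30, SE). At 6 h it overlapped sham (308, 415 and 310.3). The successive log2 steps were 1.32 from 6 to 12 h, 1.26 from 12 to 24 h and 1.09 from 24 to 36 h. At 36 h it stood at 4150.3, 4536 and 4303, above every lesion library and at 151% of the lesion mean.

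Flrt3 and Cd44, surface molecules of adhesion, were high at the first culture time and stayed there. Flrt3, a leucine-rich repeat protein that binds latrophilins, Unc5 receptors and Robo1, was at 648, 667 and 641 in sham libraries. After lesion it was at 4951, 3335 and 4582 (ratio 6.58, log2 difference 2.70 ± 0.18, SE), but 6 h cultures held 10979, 8896 and 10201, 15.4 times sham. The values at 36 h were 8480, 7648 and 8529, below every 6 h library, with a log2 difference of -0.28 that shrank to -0.09 when libraries were rescaled to equal totals. Every culture library from 6 to 36 h was above every lesion library.

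Cd44, a receptor for hyaluronan, stood at 4240.1, 4138 and 4811 in sham libraries and at 5387, 5257 and 5551 after lesion, a ratio of 1.23 (log2 difference 0.30 ± 0.07, SE). The groups do not overlap, but the difference is small beside that of the others and ranked 3382 of 14556 genes. In culture it was at 18835, 14353 and 16100.0 at 6 h, 3.74 times sham, and at 21828, 16198 and 19905 at 36 h, 4.39 times sham. The 4 culture times overlap one another. Cd44 is also made by other cell types of the ganglion, and the 8 macrophage markers, all present after lesion, had a summed level of 2842 to 4208 there against 1422 to 1555 after sham surgery and 342 to 547 at 6 h. In culture 2 of these markers were above their sham mean of 31.1 and 48.4 at 36 h, namely Cd68 at 129 and Ptprc at 69.3. The 5 endothelial markers were all present in every group. Their summed level was 1018 to 1136 after sham surgery, 1167 to 1358 after lesion, 2239 to 2943 at 6 h and 3833 to 5117 at 36 h. In the embryo it was 2678 to 3500 at E12.5 and 3111 to 3433 at E17.5, where the Cd44 means were below that of sham. The part of these cells in the Cd44 values was not tested.

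Igfn1, an immunoglobulin and fibronectin domain protein known from skeletal muscle, was among the members with the lowest level per length. It was at 5.90, 7.31 and 11.5 in sham libraries and at 382, 219 and 276 after lesion, a ratio of 35.5 (log2 difference 5.00 ± 0.34, SE) that ranked 3 of 14556 genes. Only 7 reads in all lay behind its 6 h values of 0.726, 3.30 and 0. It was at 6.24 ± 2.03 at 12 h, 44.7 ± 15.6 at 24 h and 106, 54.3 and 112 at 36 h, 31.0% of the lesion level. With a pseudocount of 10 the lesion difference was 4.03 and that from 6 to 36 h was 3.10, against 5.48 with 1. The summed level of 6 skeletal muscle markers was 94.5 to 184 after sham surgery, 34.8 to 97.7 after lesion, 4.36 to 24.7 at 6 h with 2 of 6 at 0 and 10.2 to 14.0 at 36 h with 3 of 6 at 0. In the embryo it was 54.6 to 81.8 at E12.5 and 346 to 849 at E17.5. Igfn1 itself stood at 2.08 ± 2.57 at E12.5 and 10.4 ± 11.0 at E17.5, where 1 library held 50 of the 54 reads. The part of muscle cells in the Igfn1 values was not tested.

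Per kilobase of exon, the order of the members changed with the setting. After lesion Sprr1a led with 23743 ± 5640 normalized reads per kilobase, ahead of Gap43 (7469 ± 1263), Gpr151 (1481 ± 419), Flrt3 (882 ± 174) and Cd44 (797 ± 21.8). At 36 h Sprr1a (3696 ± 493), Cd44 (2850 ± 422), Gap43 (2126 ± 40.9), Gpr151 (1807 ± 133) and Flrt3 (1689 ± 102) lay within a far narrower range. Igfn1 was last after lesion except for Tmprss5, at 32.5 ± 9.22 against 24.4 ± 3.36, and last at 36 h at 10.1 ± 3.51.

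By 36 h, 4 members were above every lesion library (Sez6l, Tmprss5, Flrt3 and Cd44), 4 were below every one (Sprr1a, Gap43, Cckbr and Igfn1) and Ecel1 and Gpr151 overlapped. Over all genes 33% were above and 34.6% below in this sense. Against 6 h, 7 members were above at 36 h in every library (30.2% of all genes) and Gap43 and Flrt3 below (29.6% of all genes). The same 7 were above from 6 to 12 h (13.2% of all genes) and from 12 to 24 h (15.1% of all genes), namely Sprr1a, Ecel1, Sez6l, Gpr151, Cckbr, Igfn1 and Tmprss5. From 24 to 36 h, 5 were above in every library (14.4% of all genes): Sprr1a, Gap43, Sez6l, Gpr151 and Tmprss5.

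Speed in culture differed among these 7 genes. At 12 h Gpr151 was at 35.4% of its 36 h level, Ecel1 at 30.1% and Cckbr at 29.6%, whereas Sez6l was at 20.0%, Tmprss5 at 14.9%, Sprr1a at 8.31% and Igfn1 at 6.89%. At 24 h Cckbr was at 104%, Gpr151 at 80.9% and Ecel1 at 77.1%, and the other 4 were between 47.2% and 55.7%. On the log2 scale the largest step between successive times was from 6 to 12 h for Sprr1a (3.14), Ecel1 (2.81), Tmprss5 (2.08), Cckbr (1.83) and Sez6l (1.32), and from 12 to 24 h for Igfn1 (2.65) and Gpr151 (1.20). The later interval is longer, and per hour Igfn1 climbed more from 6 to 12 h (0.31) than from 12 to 24 h (0.22), while Gpr151 did not (0.056 and 0.10).

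**Figure D3:**
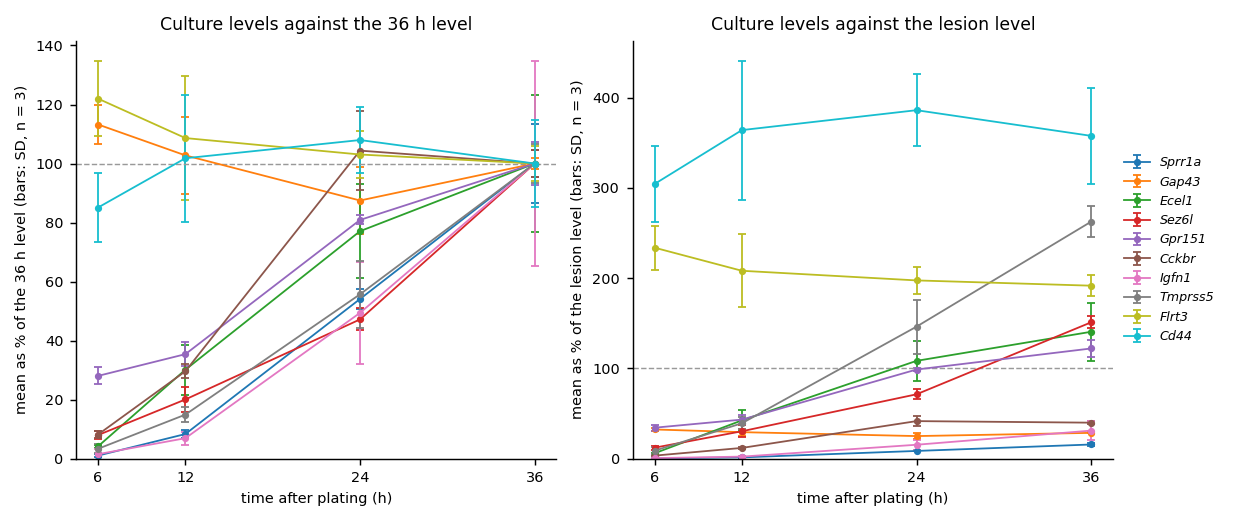
Mean level at 6, 12, 24 and 36 h after plating as a percentage of the 36 h mean (left) and of the lesion mean (right), with SD bars of 3 libraries. Sprr1a, Gap43, Cckbr and Igfn1 end below the lesion level at 36 h, and Tmprss5, Flrt3 and Cd44 end far above it.

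Within the lesion group, replicate 2 was the lowest library for all 9 members that stood above sham, at 61.4% (Gpr151) to 96.1% (Cd44) of the mean of the other 2. Of 139 other genes with lesion libraries above sham and a mean at least 4 times as high, 114 (82%) were also lowest there, against 44.5% of 3815 other genes above sham at any size. Replicate 2 was the shallowest lesion library, with 7451955 reads, and the source of this difference was not tested. Without it the ratio to sham was 45.6 for Sprr1a, 40.0 for Igfn1, 26.7 for Cckbr, 22.1 for Ecel1, 22.0 for Gpr151, 11.0 for Sez6l, 7.31 for Flrt3, 2.87 for Gap43 and 1.24 for both Tmprss5 and Cd44.

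**Figure D4:**
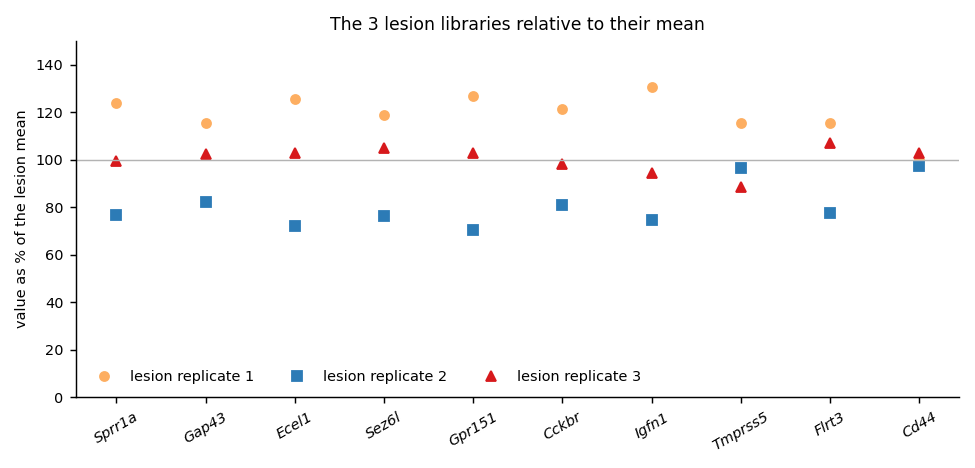
Value of each gene in the 3 lesion libraries as a percentage of their mean. Replicate 2 is lowest for every gene but Tmprss5, and the 3 libraries lie close together for Cd44.

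The embryonic comparison asks whether genes of adult regrowth change while the axons first grow out and mature. Of the 10 genes, 7 had a level of at least 10 in at least 3 embryonic libraries and were tested. Of these 7, 3 rose from E12.5 to E17.5, 3 fell and 1 was not called by limma, so 6 of 7 were called against 63% of all 14550 genes tested (31.1% higher and 31.9% lower). The share called is thus not far from that of genes at large, and the members had no common direction. Tmprss5 reached the minimum in E17.5 libraries only and Ecel1 in E12.5 libraries only, so this filter favours a difference for them. Without the minimum both were still called (limma adjusted p = 3.2e-04 for Tmprss5 and 2.1e-04 for Ecel1).

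Cd44, Tmprss5 and Gap43 rose. Cd44 went from 66.4, 82.9 and 128 at E12.5 to 3387, 4176 and 3596 at E17.5 (log2 difference 5.36 ± 0.23, limma adjusted p = 6.4e-07), close to its adult sham level. Tmprss5 went from 9.88, 3.21 and 7.93, on 34 reads in all, to 60.3, 59.96 and 102 (log2 difference 3.29 ± 0.43, adjusted p = 2.0e-04 in limma). Gap43 went from 3052, 4166 and 3101 to 13021, 11449 and 12329 (log2 difference 1.85 ± 0.15, limma adjusted p = 1.2e-05). In each of these 3 genes every E17.5 library was above every E12.5 library.

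Ecel1, Sez6l and Flrt3 fell. Ecel1 was at 220, 292 and 191 at E12.5, above its sham level, and at 5.68, 7.05 and 0 at E17.5 on 15 reads in all (log2 difference -5.94 ± 0.71, limma adjusted p = 1.2e-04). Sez6l went from 352, 402 and 264 to 55.1, 24.7 and 34.7 (log2 difference -3.17 ± 0.30, adjusted p = 3.1e-05 in limma). Flrt3 went from 947, 951 and 1309 to 533, 635 and 592 (log2 difference -0.85 ± 0.16, limma adjusted p = 0.00152). All 3 were lower in every E17.5 library than in any E12.5 library.

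The remaining members were near the detection limit in the embryo. Gpr151 stood at 7.14, 10.9 and 9.37 at E12.5 and at 10.9, 21.2 and 34.7 at E17.5, and was not called (log2 difference 1.08 ± 0.46, limma adjusted p = 0.0678). It was called with 1 spread estimated over all 24 libraries (adjusted p = 6.8e-04, limma) and without replicate 1 of E17.5 (adjusted p = 0.0253, limma). Sprr1a (70 and 12 reads at the 2 ages), Cckbr (9 and 4 reads) and Igfn1 (9 and 54 reads, 50 of them in 1 library) did not reach the minimum. A difference between the ages was not detectable for them at this depth, and replicates 2 and 3 of E17.5 had 3103838 and 4610428 reads.

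**Figure D5:**
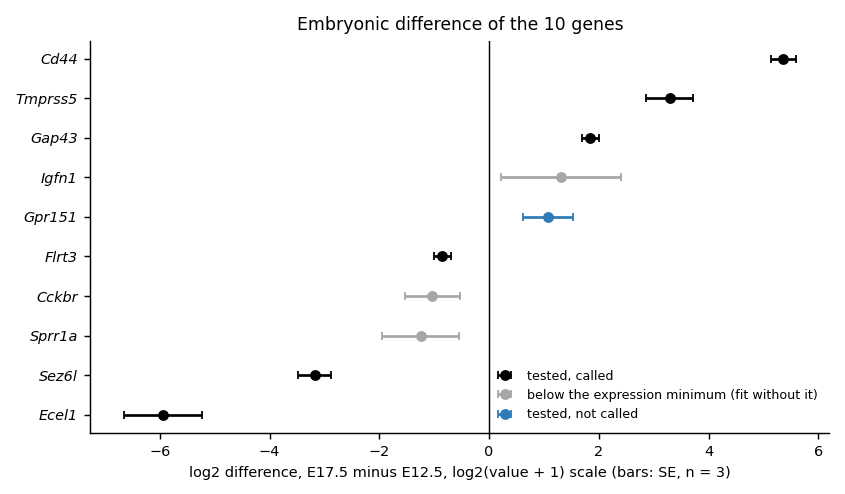
Log2 difference between E17.5 and E12.5 of the 10 genes on the log2(value + 1) scale, with SE bars (n = 3 per age); black points passed the limma test, the blue point was tested and did not pass, and grey points come from a fit without the expression minimum. Cd44, Tmprss5 and Gap43 lie to the right of 0 and Flrt3, Sez6l and Ecel1 to the left.

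Embryonic levels stood differently to the adult ones from gene to gene. Sprr1a, Cckbr and Gpr151 were at most 32.4, 2.88 and 34.7 in any embryonic library, below every sham library. For Gap43, Cd44 and Tmprss5 the E17.5 mean was near or above the sham mean (12266 ± 788, 3719 ± 409 and 74.0 ± 24.0 at E17.5), and only Gap43 was above sham in every library (35% of all genes). Flrt3 at E17.5 was just below sham in every library, and Igfn1 overlapped it. Ecel1 and Sez6l were lower at E17.5 than in any adult group, and Ecel1 at E12.5 was above every sham library and below every lesion library. In all, 6 members were higher after sham surgery than at E17.5 in every library (32.3% of all genes), and all 10 were higher after lesion than at E12.5 (41.5% of all genes). Summed general neuron markers differ between these groups by the ranges given above, and their part was not tested.

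The levels of the members over the 24 libraries were alike to different degrees. The closest pair was Ecel1 and Sez6l (Pearson r = 0.946 on log2 values), followed by Cckbr and Sprr1a (r = 0.939) and Cckbr and Gpr151 (r = 0.924). Over the 45 pairs the median r was 0.61, and 7 pairs, all with Gap43, were below 0. These libraries share groups and depth, so r describes the pattern over the 8 groups and not independent points. The choice of members for rises after lesion or plating also favours a high r between them. Among 14792 genes, the one most like Sprr1a was Crh, the peptide corticotropin-releasing hormone (r = 0.977; 15.6 after sham surgery, 183 after lesion and 56.0 at 36 h), and Cckbr came next. Sez6l was most like Fgf3, a fibroblast growth factor (r = 0.965; 6.13 after sham surgery, 198 after lesion and 159 at 36 h). The genes most like Flrt3 were Acvr1, a receptor of the BMP family (r = 0.977), and Cd207 (r = 0.977), which was at 0.573 after sham surgery, 22.1 after lesion and 260 at 6 h. Cd44 was most like Samd9l (r = 0.993) and Syt4, a synaptotagmin (r = 0.992; 9463 after sham surgery, 12790 after lesion and 31253 at 36 h). Gpr151 was most like Rsad1 (r = 0.974) and Xdh, xanthine dehydrogenase (r = 0.974), Tmprss5 most like Mxra8 (r = 0.962), Cckbr most like Zak (r = 0.97), Igfn1 most like Sirpa (r = 0.926) and Gap43 most like Ydjc (r = 0.902).

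Regulators of the injury response, a list of 25 transcription factors and signalling genes, were tested beside the members. This list and those below were chosen from general knowledge with earlier results of these data known. Their counts are therefore no independent test. After lesion 18 of 23 tested regulators rose and 0 fell, with a median log2 difference of 0.55 against -0.01 over all genes. Of all genes 41.2% were called, and 20.9% were called higher. Atf3 went from 557 ± 28.8 to 9207 ± 1995 (log2 difference 4.02 ± 0.14, limma adjusted p = 1.7e-07) and Sox11 from 282 ± 41.0 to 2145 ± 549 (2.90 ± 0.19, limma adjusted p = 1.2e-05). From 6 to 36 h in culture 2 of 24 rose and 9 fell (50.6% of all genes were called, 25.3% in each direction), among them Egr1 (3818 ± 96.5 to 1197 ± 196) and Fos (2819 ± 199 to 1083 ± 108). The 2 that rose were Cebpd (164 ± 29.1 to 1067 ± 342) and Junb (437 ± 114 to 987 ± 366), and 8 rose when libraries were rescaled to equal totals, 4 without replicate 1 of 36 h and 1 without replicate 2 of 36 h or replicate 1 of 6 h. This comparison holds no sham libraries. Sham means were 227 for Egr1, 82.2 for Fos, 190 for Cebpd and 330 for Junb. At 6 h only Cebpd of these was below its sham mean, and at 36 h all were above. Atf3 stood at 10153 ± 544 at 6 h and 8231 ± 518 at 36 h, and Sox11 at 3244 ± 494 and 3850 ± 136. For this list differences from sham in culture were not tested. Between the embryonic ages 10 of 23 rose and 6 fell, against 31.1% of all genes called higher and 31.9% lower. Only 3 fell without replicate 1 or 2 of E12.5 or replicate 1 of E17.5. Sox11 fell most, from 17307 ± 4741 to 1450.4 ± 217, and Klf9 rose most, from 54.4 ± 4.38 to 313 ± 26.8.

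Other genes known from axon growth and regeneration, a list of 42, mostly rose after lesion. There 30 of 36 tested rose and 2 fell (median log2 difference 0.78), against 20.9% of all genes called higher and 20.2% lower. The peptides Npy (13.0 ± 2.16 to 428 ± 187) and Gal (107 ± 39.7 to 1159 ± 384) led the rises. Nrn1, neuritin, fell from 9206 ± 398 to 4673 ± 916 and Bdnf from 1117 ± 167 to 814 ± 56.1. In culture 24 of 39 rose from 6 to 36 h and 5 fell (median 1.07, against 0.02 over all genes). Of all genes 25.3% were called in each direction. Itga7, a laminin receptor subunit, went from 1971 ± 426 to 12867 ± 907, and Nrn1 from 8477 ± 734 to 734 ± 29.1. Stmn2, a microtubule regulator of growth cones, fell from 26614 ± 1198 to 11927 ± 1401 over the same time. Between the ages 22 of 36 rose and 5 fell (median 1.35, against -0.05 over all genes), with 3 falling without replicate 1 or 2 of E12.5. Of all genes 31.1% were called higher and 31.9% lower. Gal rose from 4.53 ± 1.42 to 166 ± 36.7, and Gadd45a fell from 194 ± 18.1 to 97.6 ± 20.2.

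Relatives of the members, a list of 35 paralogs and family genes of which 33 are in the table, did not move as a block. After lesion 6 of 19 tested rose and 5 fell (median 0.06), against 20.9% of all genes higher and 20.2% lower. Only 2 fell with 1 spread estimated over all 24 libraries. There were 3 that fell without the expression minimum, with libraries rescaled to equal totals, with neither trend nor robust fitting, and without replicate 1 or 3 of lesion or replicate 1 or 2 of sham. Cckar, the other cholecystokinin receptor, rose from 704 ± 83.6 to 1368 ± 192 (log2 difference 0.95 ± 0.11, limma adjusted p = 2.8e-05), and Flrt2 rose from 422 ± 7.53 to 732 ± 86.0 (0.78 ± 0.09, limma adjusted p = 2.5e-05). Pcp4, which like Gap43 carries an IQ motif, fell from 3432 ± 111 to 1901 ± 128. In culture 5 of 18 rose and 8 fell (median -0.42), against 25.3% of all genes called in each direction. Here Cckar fell from 343 ± 22.3 to 61.7 ± 16.3 while Sez6l2 rose from 1013 ± 156 to 1829 ± 188. Between the ages 10 of 19 rose and 5 fell, against 31.1% of all genes called higher and 31.9% lower. Only 2 to 3 fell without replicate 2 of E12.5 or replicate 1 or 2 of E17.5.

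Ligands and binding partners of the members, a list of 27 genes, were called in both directions, as were genes at large. After lesion 2 of 23 rose and 7 fell (median -0.03), against 20.9% of all genes called higher and 20.2% lower. The 2 that rose were Ezr and Lphn1. With 1 spread estimated over all 24 libraries 0 rose (limma adjusted p = 0.108 for Ezr and 0.442 for Lphn1) and 3 fell. With neither trend nor robust fitting, or without replicate 1 of lesion or replicate 1 or 2 of sham, 1 rose. From 6 to 36 h 6 of 25 rose and 8 fell (median 0.21), against 25.3% of all genes called in each direction. When libraries were rescaled to equal totals 12 rose. Spp1, osteopontin, a Cd44 ligand, rose from 1654 ± 547 to 5557 ± 159. Unc5a, of the Unc5 receptors that Flrt3 binds, rose from 46.9 ± 6.84 to 116 ± 47.4 and was not called without replicate 2 of 36 h (limma adjusted p = 0.0623). Prkca, a kinase of the family that phosphorylates Gap43, fell from 7604 ± 850 to 1754 ± 146, and Unc5c, another Unc5 receptor, from 441 ± 75.0 to 146 ± 33.9. Between the ages 11 of 25 rose and 7 fell (median 0.12), against 31.1% of all genes called higher and 31.9% lower. Spp1 went from 28.7 ± 3.59 to 2189 ± 658 and Vcan, a hyaluronan-binding proteoglycan, from 14655 ± 7857 to 1949 ± 361.

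In the mm10 annotation of GENCODE M21 all 10 members are single protein-coding genes, and 0 of them share exon bases with another annotated gene. Sprr1a lies at chr3:92483952-92485895, Gap43 at chr16:42248442-42340651, Ecel1 at chr1:87147655-87156521, Tmprss5 at chr9:49081260-49117587, Gpr151 at chr18:42577881-42579652 and Cckbr at chr7:105425731-105470898. Sez6l lies at chr5:112419151-112577185, Flrt3 at chr2:140650914-140671469, Cd44 at chr2:102811141-102901665 and Igfn1 at chr1:135953578-136006342. Cckbr, Tmprss5 and no other member are on the plus strand.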

How the data were processed

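The authors deposited 1 table of signal values, read counts per gene divided by 1 factor per library, for 20782 genes. The submitters' processing notes name TopHat and mm10. Neither the counting tool nor the annotation nor how the factors were made is given in the sources used here. The division was read from the values: 100% of 339603 values of up to 1000 reads were whole multiples of 1 read within 0.1 reads. The design foresaw normalized values or raw counts, so limma gave the main tests and count tests on recovered reads were alternatives.

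Values were analysed as deposited on log2(value + 1) with limma 3.58.1 (trend and robust) in R 4.3.3, each experiment by itself. Genes with a value of at least 10 in at least 3 libraries were tested, with Benjamini-Hochberg adjustment over all of them and a threshold of 0.05. The limma fits were also run on simulated counts with the same spread for all genes. That setting differs from these data, and no result here rests on it. For 69 genes, 0 of them members, an E12.5 entry matches a trimmed mean across libraries.

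The members and gene lists were chosen with earlier results of these data known. List genes named were the 2 largest rises and falls per comparison among genes whose groups do not overlap, where the greater group mean reached 100, and part of them is printed. Genes named as most alike were among the 3 highest Pearson r. Groups said not to overlap have every library of one above every library of the other. Alternatives were other pseudocounts, minimums, scalings and fits, edgeR 4.0.16 and DESeq2 1.42.0 on recovered reads, and leaving out libraries.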

Additional observations from a re-analysis of the deposited data

How the results depend on the processing

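The 6 embryonic calls kept direction and stayed called in each alternative that tested the gene. These were 17 alternatives for Cd44, Gap43, Sez6l and Flrt3 and 14 for Ecel1 and Tmprss5. Ecel1 missed the minimum when any library of E12.5 was left out, and Tmprss5 when any of E17.5 was, the ages where they are high. Leaving out a library of the high age therefore could not check these calls. With 1 library left out, 2 to 3 members were called higher and 2 to 3 lower. For the genes that rose, the log2 differences ran from 5.16 to 5.62 for Cd44, 2.29 to 3.57 for Tmprss5 and 1.75 to 1.99 for Gap43. For those that fell they ran from -6.48 to -4.12 for Ecel1, -3.47 to -2.89 for Sez6l and -0.95 to -0.70 for Flrt3. With 1 spread estimated over all 24 libraries, 1541 genes were higher and 1052 lower after lesion, against 3043 and 2947. The cause was not tested. Rescaling to equal totals moved the median difference of all genes from 6 to 36 h to 0.21 and the share of calls that were higher from 49.99% to 63.3%, and it turned the log2 difference of Gap43 from 6 to 36 h from -0.18 to 0.0129. Leaving out 1 library gave 2398 to 2828 genes higher and 2162 to 2924 lower after lesion, 3225 to 4228 and 3281 to 4195 from 6 to 36 h, and 3648 to 4437 and 3664 to 4667 between the embryonic ages. No paired analysis was possible because the labels give the groups no shared replicate numbers. The library numbers in the titles of lesion and sham fall into 2 series. With the series as a covariate 2905 genes were higher and 2776 lower after lesion. Library numbers of the 2 embryonic ages lie in separate ranges, as do those of cultures and operated ganglia. There the series cannot be told apart from age or culture. Values on few reads, such as those of Igfn1, Tmprss5 and Sprr1a at 6 h, are limited by depth.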
